A study of Bos taurus with 12 samples.

Results

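The expression of 9 liver enzymes that break down tyrosine and tryptophan was followed in newborn calves: TAT, HPD, HGD, GSTZ1, FAH, TDO2, KMO, KYNU and HAAO. They were chosen by gene symbol as enzymes of these routes and are 9 of the 30336 genes in the count files. All 9 were found and all 9 passed the filter on low counts. Liver was taken by puncture biopsy at 4 d of age from Holstein heifer calves of 2 groups, 6 libraries in each, and read as stranded mRNA. CON calves were born to cows on a basal close-up diet without added Met, and MET calves to cows that received the same diet plus Met coated with ethyl cellulose to pass the rumen. The diets were given over the last 28 d before calving. The calves came from a larger cohort and were managed alike after birth, so that the diet of the dam was the labelled difference between the groups.

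In the liver, tyrosine is first transaminated, and its ring is then oxidised, opened and cleaved until fumarate and acetoacetate remain, which feed the tricarboxylic acid cycle and ketone body formation. Most tryptophan is broken down along the kynurenine pathway, whose products include quinolinate, the precursor of NAD made from tryptophan. TAT and TDO2, the entry enzymes of these routes, are textbook examples of genes induced by glucocorticoids. KYNU and KMO are also found in macrophages. In RNA of whole tissue, fewer cells of a type and less RNA per cell cannot be told apart.

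The libraries held between 8277789 and 10397604 counted reads, and the 9 enzymes together took from 0.252 to 0.376% of them. A chi-square per gene, which is near 1 when libraries differ by chance in counting alone, was 1.33 for CON replicates 1 and 4 and 1.24 for MET replicates 1 and 3. The other 64 library pairs gave from 25.1 to 132.9. The labels give these libraries separate calf numbers, and the CON pair carried the same 2 second index sequences as the MET pair. Each near-identical pair was counted as 1 sample, which leaves 5 samples per diet for means and SD, and values over 10 samples stand beside those over 12 libraries. The libraries of each diet carried 1 first index, and this index and the diet cannot be told apart. Markers of hepatocytes were high in each sample, with a summed expression of 166038 to 222430 CPM (counts scaled to a common library total) in CON and 136655 to 195030 CPM in MET. Of these 10 markers, 7 had a negative log2 fold change, and APOB was called lower over 12 libraries. The sum of 8 macrophage markers ran from 1211 to 1632 CPM in CON and from 1432 to 1918 CPM in MET. All 8 had a positive log2 fold change, and C1QB and C1QC were called higher over 12 libraries. The 5 T and NK cell markers, which summed to 16.4 to 25.9 CPM in CON and 18.4 to 32.6 CPM in MET, also had positive values and none was called. The 5 stellate cell and fibroblast markers had negative values, with LUM called lower, and summed to 561 to 863 CPM in CON and 430 to 711 CPM in MET. These calls are at an edgeR FDR of at most 0.10, where 2.32% of the 13212 genes tested were called lower in MET and 2.09% higher. Over 10 samples edgeR called no marker, as it called no gene. No marker of these 4 lists was at 0, and the part of the markers in the results below was not tested.

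The first question was how abundant each enzyme was. Levels of different genes were compared as RPKM (CPM divided by the exonic length in kb), over the 10 samples. HPD, which turns hydroxyphenylpyruvate into homogentisate, led with 823 ± 156 RPKM (SD, n = 10) and was the gene ranked 84 of the 13212 tested. It made up 44.2% of the summed RPKM of the 9 enzymes, from 39.5 to 54.0% in single samples. HGD, which opens the ring of homogentisate, followed with 342 ± 67.2 RPKM and lay below HPD in 10 of 10 samples. FAH, the last enzyme of the tyrosine route, stood at 183 ± 23.3 RPKM and HAAO, which opens the ring of hydroxyanthranilate in the kynurenine pathway, at 169 ± 32.3 RPKM. These neighbours could not be ordered, since FAH was above HAAO in 5 of 10 samples.

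GSTZ1, the isomerase between HGD and FAH, reached 134 ± 20.9 RPKM, and TAT reached 105 ± 31.9 RPKM. GSTZ1 was the higher of this pair in 8 of 10 samples. TDO2 was at 71.1 ± 24.0 RPKM, below TAT in 9 of 10 samples. The lowest levels were those of KMO, 14.8 ± 5.85 RPKM, and KYNU, 13.0 ± 2.66 RPKM, the middle enzymes of the kynurenine pathway. KMO was above KYNU in 6 of 10 samples, and both were below TDO2 in every sample. The steps of tyrosine breakdown after TAT were thus read more densely than TDO2, KMO and KYNU, while HAAO was close to FAH.

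**Figure D1:**
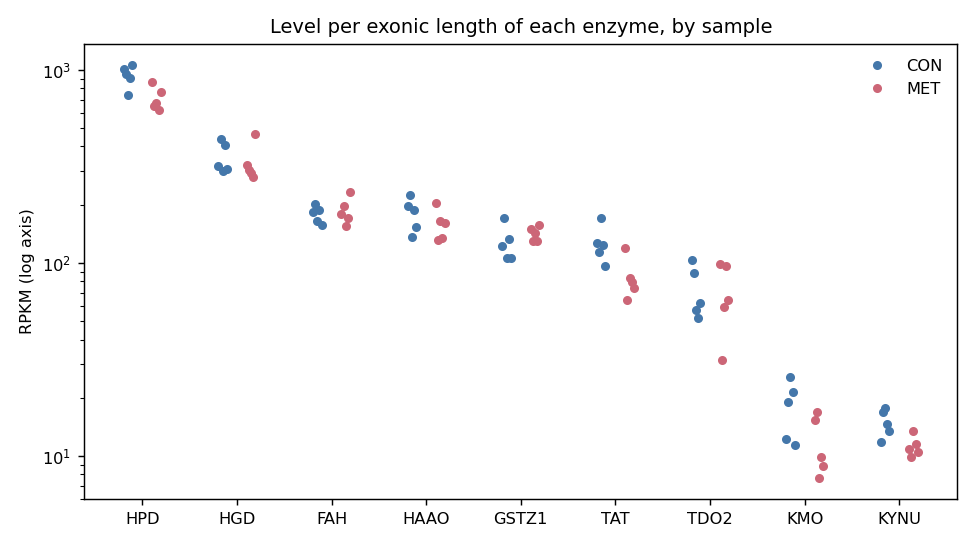
RPKM (log axis) of each enzyme, ordered by mean, with 1 point per sample and 5 samples per diet. HPD leads in all samples, FAH and HAAO overlap, and KMO and KYNU lie lowest.

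The enzymes also differed in how far calves of 1 diet varied, given as the coefficient of variation of CPM over the 5 samples of each diet. TDO2, at 30.8% in CON and 40.4% in MET, and KMO, at 33.8 and 34.9%, varied most under both diets. TAT followed with 21.4 and 25.1%. The median over all genes tested was 19.0% in CON and 19.6% in MET. HPD, at 13.0 and 14.0%, KYNU, at 16.1 and 12.3%, and FAH, at 9.65 and 15.95%, were below these medians under both diets. GSTZ1 had 21.2% in CON and 8.27% in MET. No test was made of these differences in spread.

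The main comparison asked whether the diet of the dam went with a difference in these enzymes. None of the 9 was called at an edgeR FDR of at most 0.10 over the 12 libraries, where 4.41% of all 13212 genes tested were called (2.32% lower and 2.09% higher in MET). At an unadjusted edgeR p of at most 0.05, 3 enzymes (TAT, HPD and KYNU) were lower in MET, beside 10.4% of all genes that were lower at that level. Over 10 samples KMO joined them, making 4 of 9 beside 8.52% of all genes, and again edgeR called no enzyme, as it called no gene of the table (0%). DESeq2 on the same counts called TAT, HPD and KYNU lower over 12 libraries, where it called 9.95% of all genes and 5.15% as lower. Over 10 samples it called TAT and HPD lower, beside 4.83% of all genes called and 2.51% as lower. The voom method of limma called none of the 9. In 7 of 9 enzymes the log2 fold change was negative (50.4% over all genes), with a median of -0.13 against -0.0031 over all genes. FAH turned negative as well when a trend on gene length was removed. No enzyme had all MET samples below all CON samples, a pattern found in 1.77% of all genes, nor all above, found in 1.94%.

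**Figure D2:**
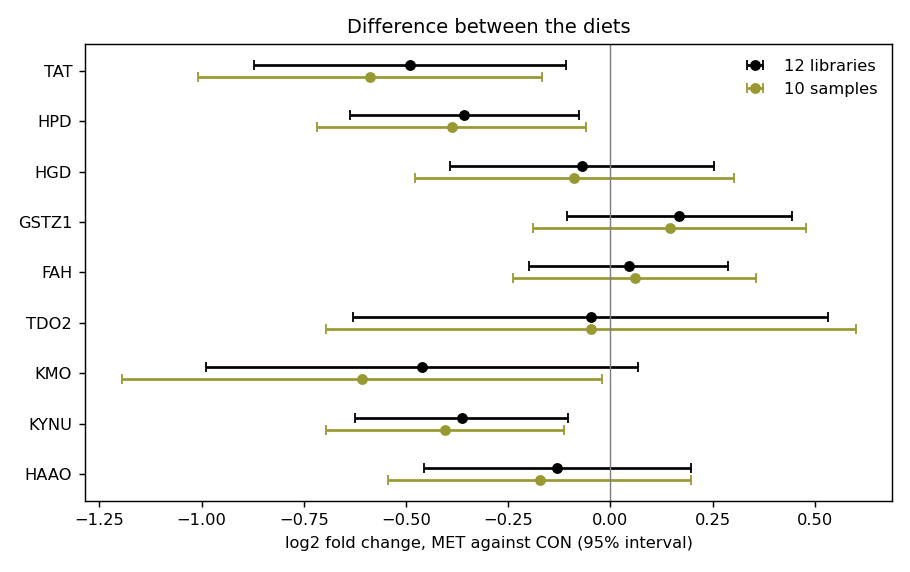
Log2 fold change of MET against CON with the 95% interval of edgeR's fit, over 12 libraries and over 10 samples. The intervals of TAT, HPD and KYNU lie below 0 in both fits and that of KMO over 10 samples, before any adjustment for the number of genes tested.

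TAT (Entrez 533481) encodes tyrosine aminotransferase, the first and rate-limiting step of tyrosine breakdown. It lies on the plus strand of chromosome 18, from 39571656 to 39629620 of UMD 3.1.1, with 3559 exonic bases in 14 blocks. Its expression was 452 (the mean of replicates 1 and 4), 406, 604, 439 and 344 CPM in CON and 425 (the mean of replicates 1 and 3), 229, 296, 281 and 262 CPM in MET. In 4 of 5 MET samples it was below the lowest CON sample, and the near-identical MET pair lay among the CON values. The means were 449 ± 96.1 and 299 ± 74.9 CPM (SD, n = 5 each). The edgeR log2 fold change was -0.49 (SE 0.18, FDR = 0.148) over 12 libraries and -0.59 (FDR = 0.197) over 10 samples. Over 12 libraries the fitted level in MET was 71.1% of that in CON, with a 95% interval of 54.6 to 92.7%. Over 10 samples it was 66.5% (49.7 to 89.1%). Here and below, levels in MET as a percentage of CON come from the fit over 12 libraries unless 10 samples are named. That fit counts both libraries of a near-identical pair. The exact two-sided permutation p was 0.0238 over the 252 arrangements of 10 samples, where the smallest possible is 0.00794. Exons of TAT overlap those of MARVELD3 on the opposite strand, and the counting took account of strand.

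HPD (Entrez 516058) lies on the plus strand of chromosome 17, from 55707870 to 55719927, with 1452 exonic bases in 14 blocks. It was read at 1462 (pair mean), 1379, 1079, 1315 and 1542 CPM in CON and at 1252 (pair mean), 946, 978, 894 and 1110 CPM in MET. The values of 3 MET samples were below all CON samples, and the other 2 lay above the lowest CON sample alone. The means were 1355 ± 177 and 1036 ± 145 CPM (SD, n = 5 each). The edgeR log2 fold change was -0.36 (SE 0.13, FDR = 0.151) over 12 libraries and -0.39 (FDR = 0.247) over 10 samples. Over 12 libraries the fitted level in MET was 78.1% of CON, with a 95% interval of 64.3 to 94.8%. Over 10 samples it was 76.4% (60.8 to 96.0%). The exact permutation p was 0.0238 over 10 samples. It was 0.0130 over 12 libraries, where the libraries of a near-identical pair count as separate samples. Exons of HPD overlap those of LOC104974641 on the opposite strand.

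For the remaining enzymes of the tyrosine route the interval of the difference included 0, over 12 libraries and over 10 samples. HGD, whose loss causes alkaptonuria, lies on the minus strand of chromosome 1 (65942080 to 65984708). It ran from 478 to 699 CPM in CON and from 444 to 745 CPM in MET, with the fitted level in MET at 95.3% of CON (95% interval 76.2 to 119%). GSTZ1, on the plus strand of chromosome 10 (89589338 to 89604841), ran from 320 to 520 CPM in CON and from 393 to 474 CPM in MET. It had the largest positive log2 fold change of the 9, 0.17 (edgeR FDR = 0.479), and a fitted level in MET of 112% of CON (92.9 to 136%). Without CON replicate 2, its highest sample, the log2 fold change was 0.27 at an unadjusted edgeR p of 0.0253 (FDR = 0.176). Leaving out the highest CON sample raises this difference in itself. With each library left out in turn, the unadjusted edgeR p ran from 0.0253 to 0.371. FAH, whose loss causes hereditary tyrosinaemia, lies on the plus strand of chromosome 21 (26610001 to 26643315). It ran from 228 to 290 CPM in CON and from 223 to 336 CPM in MET, at 103% of CON (87.2 to 122%). MET replicate 6 was the highest MET sample for each of HGD, GSTZ1 and FAH, and the ranges of the diets overlapped for all 3.

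**Figure D3:**
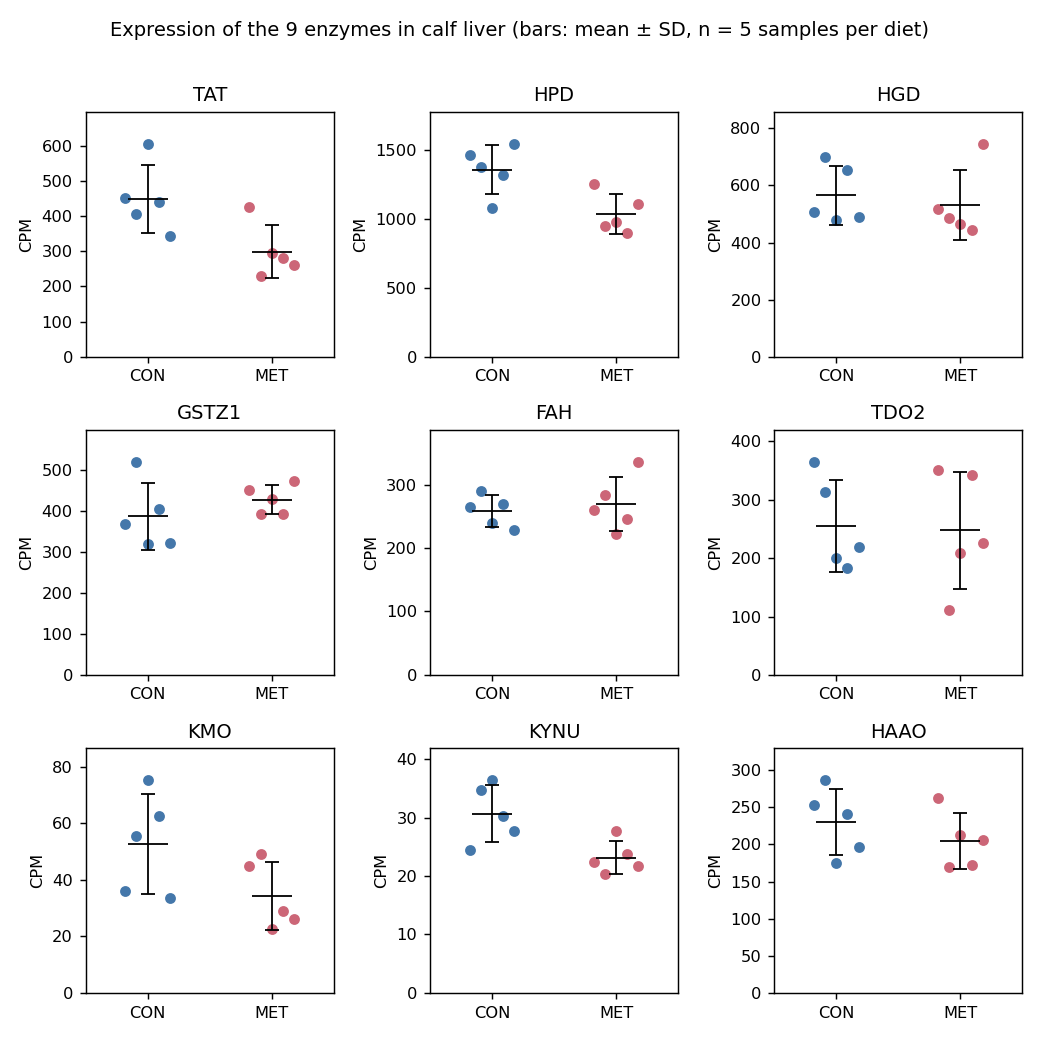
CPM of each enzyme by sample (points, near-identical library pairs averaged), with the mean and SD of 5 samples per diet. The diets overlap for all 9 enzymes, and 4 of 5 MET samples lie below all CON samples for TAT and KYNU.

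In the kynurenine pathway, TDO2 encodes tryptophan dioxygenase, which opens the indole ring, and lies on the minus strand of chromosome 17 (44376584 to 44394268). It was read at 365 (pair mean), 313, 200.5, 183 and 218 CPM in CON and at 350.4 (pair mean), 111, 209, 342 and 227 CPM in MET. High and low samples occurred under both diets. The fitted level in MET was 96.7% of CON with a wide interval, 64.6 to 145% (log2 fold change -0.05, SE 0.27, edgeR FDR = 0.944).

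KMO, the hydroxylase of kynurenine in the outer mitochondrial membrane, lies on the minus strand of chromosome 16 (35974456 to 36045385). It was read at 36.0 (pair mean), 55.4, 75.1, 62.5 and 33.4 CPM in CON and at 45.0 (pair mean), 49.2, 22.4, 29.0 and 26.0 CPM in MET. In 3 MET samples it was below all CON samples, while the other 2 were above the 2 lowest CON samples. The edgeR log2 fold change was -0.46 (SE 0.25, FDR = 0.308) over 12 libraries and -0.61 (FDR = 0.295) over 10 samples. The exact permutation p was 0.0952 over 10 samples and 0.143 over 12 libraries. The fit over 12 libraries allowed a level in MET from 50.4 to 105% of CON.

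KYNU, which cleaves alanine from hydroxykynurenine, lies on the minus strand of chromosome 2 (53843868 to 53964125). It was read at 24.4 (pair mean), 34.7, 36.4, 30.2 and 27.7 CPM in CON and at 22.3 (pair mean), 20.3, 27.7, 23.7 and 21.6 CPM in MET, from 208 to 318 reads per library. In 4 of 5 MET samples it was below the lowest CON sample. The means were 30.7 ± 4.94 and 23.2 ± 2.85 CPM (SD, n = 5 each). The edgeR log2 fold change was -0.36 (SE 0.12, FDR = 0.127) over 12 libraries, the lowest FDR of the 9, and -0.40 (FDR = 0.198) over 10 samples. The fitted level in MET was 77.7% of CON over 12 libraries (95% interval 64.9 to 93.1%) and 75.6% over 10 samples (61.7 to 92.5%). The exact permutation p was 0.0238 over 10 samples and 0.0173 over 12 libraries.

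HAAO, whose product closes to quinolinate, lies on the minus strand of chromosome 11 (25187249 to 25201563). It ran from 174 to 286 CPM in CON and from 169 to 262 CPM in MET, and the fitted level in MET was 91.4% of CON (72.9 to 115%, edgeR FDR = 0.667). Of the 4 listed enzymes of the kynurenine pathway, KYNU alone was below the unadjusted threshold over 12 libraries. Whether its difference exceeded those of TDO2, KMO and HAAO was not tested.

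Genes around these routes were read from 8 lists with 72 names, of which 70 were found and 62 passed the filter. Over 12 libraries, 1 was called higher and 4 lower, where 4.41% of all genes were called. Their log2 fold changes had a median of -0.08, and 40 of 62 were negative. GOT1, the cytosolic aspartate aminotransferase that can also act on aromatic amino acids, was higher in MET. It was at 68.0 ± 21.3 CPM in CON and 123 ± 25.8 CPM in MET (SD, n = 5 each). Its log2 fold change over 12 libraries was 0.99 (edgeR FDR = 0.0674). It was the 1 called gene of the 10 tested for tyrosine and tetrahydrobiopterin. NAMPT, the rate-limiting enzyme of NAD salvage, was lower, at 66.7 ± 9.76 and 45.4 ± 7.17 CPM (log2 fold change -0.55, edgeR FDR = 0.0552), the 1 called of 6 genes of NAD synthesis. AMDHD1, an enzyme of histidine breakdown, was lower at 57.0 ± 19.6 and 32.6 ± 7.56 CPM (log2 fold change -0.90, edgeR FDR = 0.0766), the 1 called of 11 genes for the breakdown of other amino acids.

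Of 10 liver regulators, 2 were called lower in MET. NR3C1, the glucocorticoid receptor, was at 46.2 ± 4.01 CPM in CON and 33.1 ± 4.37 CPM in MET (log2 fold change -0.49, edgeR FDR = 0.0528). PPARA, a receptor that controls fatty acid oxidation, was at 17.9 ± 1.57 and 13.1 ± 2.00 CPM (log2 fold change -0.42, edgeR FDR = 0.0849). For both, all MET samples were below all CON samples. With edgeR none of these 5 calls stood over 10 samples, where their FDR ran from 0.174 to 0.195. The log2 fold changes over 10 samples were 0.86 for GOT1, -0.55 for NAMPT, -0.81 for AMDHD1, -0.48 for NR3C1 and -0.45 for PPARA. DESeq2 called all 5 over the same 10 samples, with adjusted p from 0.0200 to 0.0797. Each edgeR call was also lost without CON replicate 1 and without CON replicate 4, at an edgeR FDR of 0.104 to 0.152. Those of NAMPT and NR3C1 held when any other library was left out, but both were lost with library size alone as the scaling (edgeR FDR = 0.154 and 0.110). That of GOT1 was lost as well without MET replicate 1 (FDR = 0.101) or 6 (FDR = 0.103). AMDHD1 was called only without CON replicate 2 or 3 or MET replicate 5, and PPARA only without CON replicate 2 or 5.

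**Figure D4:**
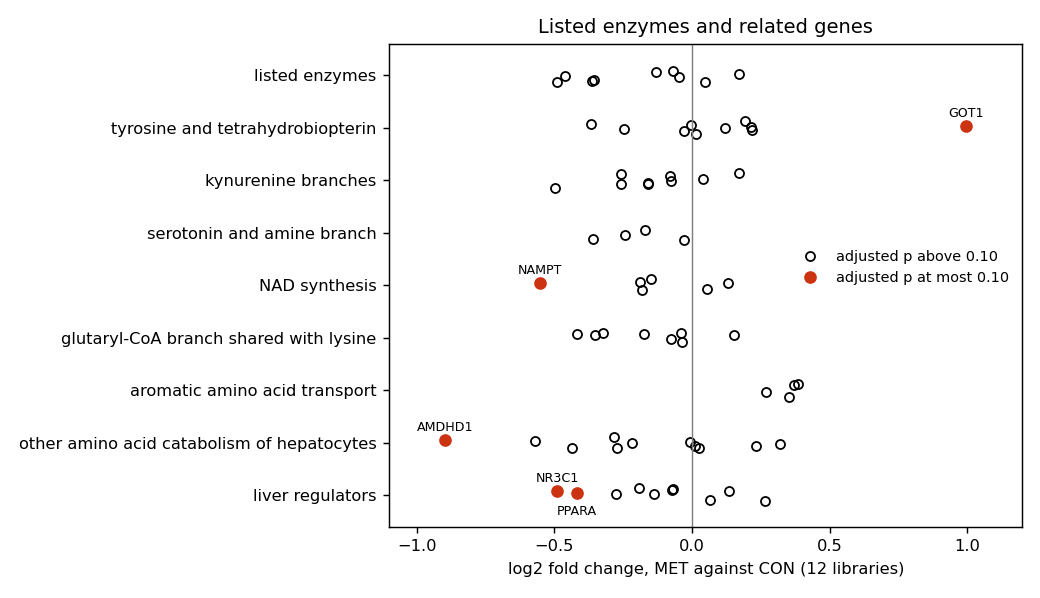
Log2 fold change of MET against CON over 12 libraries for the 9 enzymes and for the tested genes of 8 related lists, 1 point per gene. Filled points have an edgeR FDR of at most 0.10: GOT1 to the right of 0, and NAMPT, AMDHD1, NR3C1 and PPARA to the left.

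In the other 4 lists edgeR called no gene over 12 libraries. Of 9 further genes of the kynurenine pathway and its branches, 7 had a negative log2 fold change. IDO2, a tryptophan dioxygenase, was at -0.50 and AADAT, an aminotransferase of kynurenine, at -0.26. With each library left out IDO2 ran from -0.69 to -0.34 and AADAT from -0.38 to -0.15, and IDO2 was at -0.27 with voom. The 4 tested of 7 genes of the serotonin and amine branch all had negative values, with the monoamine oxidases MAOB at -0.36 and MAOA at -0.24. MAOA, with 15 to 44 reads per library, ran from -0.39 to -0.08 (without CON replicate 3) when each library was left out. In the glutaryl-CoA branch that tryptophan shares with lysine, 7 of 8 were negative, and 5 of 8 when the trend on gene length was removed. Largest in size were AASS, the first enzyme of lysine breakdown, at -0.42 and DLST, a subunit of oxoglutarate dehydrogenase, at -0.35. GCDH was the 1 with a positive value, at 0.15. DHTKD1 of the same branch, named after its values were seen, had all MET samples below all CON samples, as had 1.77% of all genes. Its log2 fold change over 12 libraries was -0.32 (edgeR FDR = 0.103). DESeq2 called DHTKD1 lower over 12 libraries (adjusted p = 0.0153), beside 5.15% of all genes. It did so over 10 samples (0.0561) too, beside 2.51%. Voom also called it (0.0963), where it called 556 of 13212 genes. With edgeR its FDR over 10 samples was 0.201, and it was called in 0 of the 12 fits with each library left out. The 4 tested of 6 carriers of aromatic amino acids had positive values, with SLC7A5 at 0.38 and SLC43A1 at 0.37. SLC7A5 ran from 0.18 (without CON replicate 4) to 0.76 (without CON replicate 3) when each library was left out, and was 0.17 over 10 samples. The 8 found genes that did not pass the filter held from 0 to 84 reads each over the 12 libraries, where the floor of 3 reads equals 0.277 to 0.377 CPM in a library and covers counting error only.

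Relations between the enzymes were tested over the 10 samples on log2 CPM. Of the 36 pairs, 28 had a positive Pearson r, from -0.34 to 0.79 with a median of 0.24. None passed a Benjamini-Hochberg adjusted permutation p of 0.05, and 5 had an unadjusted p under that level. The closest pair was HGD and FAH, with r = 0.79 (permutation p = 0.00435, adjusted 0.157) and Spearman's rho = 0.76 (permutation p = 0.0149, adjusted 0.387). With the mean of each diet removed r was 0.85. Without the 2 samples farthest from the median of HGD, which narrows its range, r was 0.47.

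Among all other genes, those with the pattern most like each enzyme over the 10 samples were listed by Pearson r, as a description. For TAT these were TEAD1 (0.96) and IRS2 (0.95), for HPD SMARCD2 (0.94) and FERMT2 (0.92), and for HGD EMP3 (0.96) and EMC10 (0.96). For GSTZ1 they were AQP8 (0.94) and COA3 (0.94), and for FAH NFIB (0.96) and NUPR2 (0.96). For TDO2 they were C2 (0.90) and COLGALT2 (0.89), and for KMO TM7SF3 (0.97) and ATL2 (0.93). For KYNU they were DSN1 (0.92) and USP24 (0.91), and for HAAO PNKD (0.91) and TMBIM6 (0.90). No gene was shared between these short lists, and the points share libraries and scaling.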

How the data were processed

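RNA of 12 liver biopsies was sequenced, 6 per maternal diet. Per the labels, reads were aligned with STAR 2.5.3a and assigned to genes with featureCounts (Subread 1.5.2); the deposited values are raw counts per Entrez gene on UMD 3.1.1, stranded and without normalization. Symbols came from a RefSeq table of a later assembly, used for names only. Samples were grouped by their labels. Counts were scaled with TMM and tested across 13212 genes with the quasi-likelihood test of edgeR 4.0.16 (R 4.3.3, minimum count 10, minimum total count 15) on diet alone, with Benjamini-Hochberg adjustment and a threshold of 0.10. Near-identical library pairs were found by a chi-square over genes with 20 or more reads in the pair. Their CPM was averaged for means, and their reads were summed for tests over 10 samples. Exact permutation tests used log2 CPM with a prior count of 2, and correlations 100000 resamples. The steps were tested on simulated data. Alternatives covered DESeq2 1.42.0, voom of limma 3.58.1, other scalings and filters, a gene length trend, a replicate block and each library left out. The enzymes and gene lists were chosen by symbol, with no threshold on a measured value but with earlier results of these data known. Named by rule were the 9 enzymes, each listed gene with FDR at most 0.10, otherwise the 2 largest log2 fold changes of a list, and the 2 genes most like each enzyme. No sequence is given, since no bovine sequence was used here.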

Additional observations from a re-analysis of the deposited data

Results flagged for a closer look

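The HGD level of MET replicate 6, 745 CPM, stood apart from the other 4 MET samples, which lay between 444 and 518 CPM. Its gap to the nearest sample was 0.756 of the range of the group, above Dixon's critical value of 0.71 for 5 samples. It was the 1 such value among 18 groups of 5 samples checked, and chance alone gives about 1 in 20. Without this library the log2 fold change of HGD was -0.19 (edgeR FDR = 0.434), against -0.07 with it. The same sample was also the highest of the MET samples for FAH, at 336 CPM, and for GSTZ1, at 474 CPM.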

How the results depend on the processing

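No enzyme was called higher under any alternative run. The number called lower was 0, and 3 with DESeq2 over 12 libraries and 2 with DESeq2 over 10 samples, the latter added after the data were seen. It stayed at 0 when each library was left out in turn. The number of all genes called, 583, was 107 with library size alone, 238 without a filter, 1314 with DESeq2, 6 with the replicate block and 245 with the length trend removed. With edgeR it was 0 with the reads of each near-identical pair summed, where DESeq2 called 639 of 13242 genes, and 0 with 1 library of each pair dropped, and 26 to 565 with each library left out, lowest without CON replicate 1 (26) and CON replicate 4 (35). The causes were not tested, and the last settings hold fewer samples. The log2 fold change of HGD turned to 0.0073 without CON replicate 2. That of FAH, 0.05, turned to -0.025 with the length trend removed and ran from -0.033 (without MET replicate 6) to 0.093 with each library left out. That of TDO2 ran from -0.15 to 0.11, above 0 without CON replicate 1 (0.049) or 4 (0.051) or MET replicate 2 (0.11) or 4 (0.011). With each library left out, TAT ran from -0.59 to -0.39, HPD from -0.42 to -0.31, KYNU from -0.42 to -0.30, KMO from -0.57 to -0.31 and GSTZ1 from 0.12 to 0.27, and the edgeR FDR of these 5 stayed above 0.10. Samples with the same replicate number did not deviate together (r from -0.19 to 0.15 across genes), and none matched its own number best. The best match of CON replicate 1 was MET replicate 3, which is near-identical to MET replicate 1. Of the 6 numbers, 2 (1 and 2) share a second index between the diets. The numbers were not taken to pair the samples. With the block 0 of 9 enzymes were called, 4 (TAT, HPD, KMO and KYNU) had an unadjusted p of at most 0.05, and the calls of GOT1, NAMPT, AMDHD1, NR3C1 and PPARA were lost (edgeR FDR from 0.159 to 0.169). Over 12 libraries, AMDHD1 (0.101) and PPARA (0.158) also lost their call with library size alone, AMDHD1 with voom (0.106), PPARA without a filter (0.143), and NR3C1 (0.118) and PPARA (0.108) with the length trend removed. Of the 9 enzymes, TDO2 and KMO had the widest 95% intervals of the level in MET over 12 libraries, 64.6 to 145% and 50.4 to 105% of CON.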
